A study of Mus musculus with 4 samples.

Results

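The dorsal telencephalon progenitor factors described here are 9 transcription factors of cortical radial glia and intermediate progenitors: Pax6, Lhx2, Emx1, Emx2, Sox2, Eomes, Neurog1, Neurog2 and Insm1. They were chosen by gene symbol from the array annotation, which names 12 of the 44290 spots for them, and 11 of those spots had values on all 4 arrays. All 9 genes were thus measured, among 11791 genes with at least 1 such spot, and the only spot lost was the one numbered 24823, of Pax6, which had no value on any array.

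Telencephalon, the embryonic forebrain region that forms the cerebral hemispheres, was taken at E12.5 from 152F7 mice and from wild-type mice, both on the FVB background. The 152F7 line is transgenic for a human yeast artificial chromosome from the Down syndrome region, with the protein kinase gene DYRK1A on it. Each genotype was 1 pool of RNA, and the sources used here do not give the number or sex of the embryos in it. Both pools were hybridised together on each of 4 two-colour arrays. The 152F7 pool carried the dye Cy5 on 2 arrays, and the wild-type pool carried Cy5 on the other 2 arrays.

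Values are log ratios of one pool over the other, so a value of 0 means equal signal, and no expression level of a gene can be read from them. The sources used here do not state the log base. The values are read as log2, and every fold given below rests on that reading. The labels do not say which genotype is the numerator. A common direction on all 4 arrays was assumed because the female-specific Xist lay at -3.53, -3.38, -3.33 and -3.27 and the Y-linked Eif2s3y at 2.39, 2.37, 1.77 and 1.87, with the arrays that had 152F7 in Cy5 first. Kdm5d, another Y-linked gene, had 0.80 ± 0.084 (mean ± SD over 4 arrays). Across 4352 genes with more than 1 spot, the Pearson correlation between 2 spots of a gene was 0.421 in the plain mean of the arrays and 0.097 with 1 dye orientation turned. Below, the pools are called numerator and denominator, and either could be the 152F7 pool. The pools thus differ in sex-linked genes too, and the part of sex in the values below was not tested. The arrays are technical repeats, so no test across genotypes and no p-value can be given, and each SD leaves out the spread between embryos.

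Radial glia are the neural stem cells that line the ventricle of the developing cortex. Sox2 keeps them in the progenitor state, and Pax6, Lhx2 and the Emx factors set their dorsal, or pallial, identity. Proneural factors of the Neurog family then push a cell toward the glutamatergic neuron fate, in part by way of intermediate progenitors, which divide away from the ventricle and carry Eomes. In mouse cortex this order of factors, Pax6 first, then Neurog2 and Eomes, is a standard description of neurogenesis at this stage.

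Genes were called higher or lower when their mean ratio reached 1.1-fold (0.138 on the log2 scale) with 1 sign on all 4 arrays. Of the 9 factors, 1 was higher in the numerator pool, Lhx2, and 0 were lower. Over all 11791 genes, 3.42% were higher and 1.45% lower by this rule. At 1.2-fold Lhx2 was still the 1 factor higher, against 0.483% of all genes, and with the line lowered to 0.07 on the log2 scale 3 factors were higher, Lhx2, Emx2 and Neurog2, against 8.94% of all genes. The median of the 9 means was 0.025, with array medians of 0.033 and 0.022 for 152F7 in Cy5 and of 0.018 and 0.048 for wild type in Cy5, against a median of 0.0021 over all genes. Leaving out replicate 1 of 152F7 in Cy5 gave a median of 0.016, and leaving out replicate 1 of wild type in Cy5 gave 0.040. Without the noisiest 25% of spots, which hold the only spots of Lhx2 and Emx1, the median of the other 7 factors was -0.012, and with the arrays of wild type in Cy5 turned that of all 9 was -0.023. The 9 means ran from -0.052 for Sox2 to 0.28 for Lhx2, and for 7 of the 9 genes the SD over the arrays was larger than the mean. In these bulk pools fewer cells of a type and less RNA per cell cannot be told apart.

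**Figure D1:**
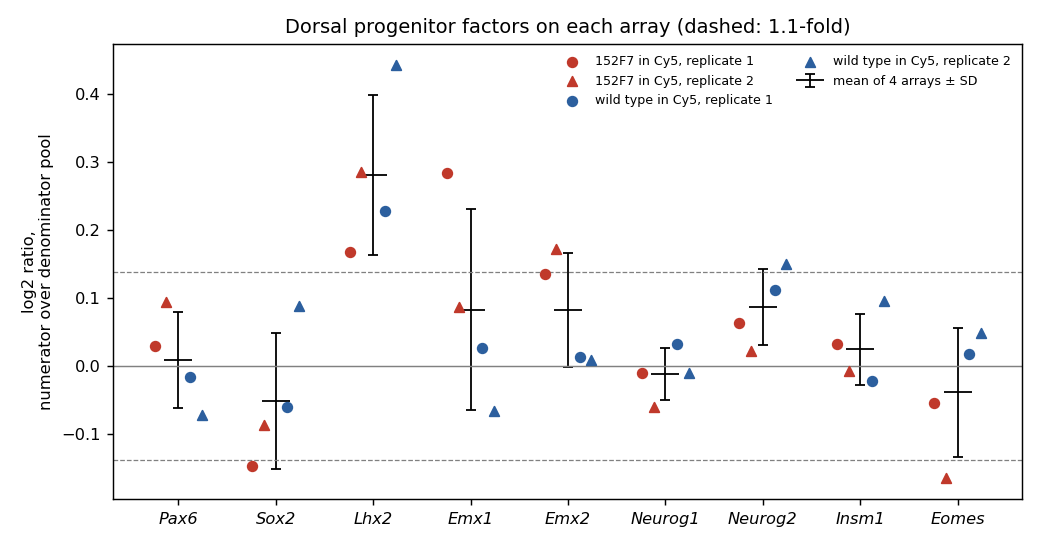
Log2 ratio of the numerator over the denominator pool (y axis) for each of the 9 factors (x axis) on each array, with 152F7 in Cy5 in red and wild type in Cy5 in blue, and the mean ± SD over the 4 arrays in black. Lhx2 lies above the dashed 1.1-fold line on all 4 arrays, while the other 8 means lie between the lines.

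Lhx2, a LIM-homeodomain factor that keeps cortical progenitors from taking the fate of the cortical hem and that is also needed to form the eye, stood at 0.168 and 0.285 on the arrays with 152F7 in Cy5 and at 0.228 and 0.443 on those with wild type in Cy5. All 4 values lay above the 1.1-fold line. The mean was 0.28 ± 0.12, or 1.22-fold, the 49th highest of 11791 genes, with 0.41% of genes higher. The value rests on 1 spot, number 20833, and replicate arrays differed there by 0.117 with 152F7 in Cy5 and by 0.215 with wild type in Cy5, against median differences over all genes of 0.059 and 0.0485. The SD within dye orientations was 0.122 for this spot and 0.0534 for the median named spot, and the spot fell among the noisiest 25%. Without those spots Lhx2 had no value.

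The genes whose 4 ratios were nearest to those of Lhx2, by Euclidean distance over the 4 arrays among 11790 other genes, were Car14, a carbonic anhydrase, at 0.113, Col1a2, a chain of type I collagen, at 0.120 and Mfsd2a, which carries lipids across brain endothelium, at 0.132. Their mean log2 ratios were 0.30, 0.25 and 0.26. With 4 technical arrays this likeness describes the size of the ratio and little else.

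Lhx2, Pax6 and Sox2 also act in the developing eye. Of 20 genes of lens, retina and pigment epithelium, 14 had values on all 4 arrays, of which 11 were called higher and 0 lower, against 3.42% and 1.45% of all genes. The list was chosen with earlier results of these data known, so this count only describes it. Pitx3, Mitf and Otx2 were not called and lay below 0, and the 14 means ran from -0.034 to 1.21 with a median of 0.28, or of 0.0009 with the arrays of wild type in Cy5 turned. The lens crystallins led with Cryba1 at 1.21 ± 0.014, Cryaa at 0.95 ± 0.12 and Crygd at 0.50 ± 0.071. Rax, a homeodomain factor of the retinal field that was singled out after its value was seen, had 0.174 and 0.182 with 152F7 in Cy5 and 0.162 and 0.139 with wild type in Cy5, a mean of 0.16 ± 0.019. Only 1 of the 2 spots named for Rax had values on all 4 arrays. Six6, Foxe3, Lim2, Tyr and Tyrp1 had no spot with values on all 4 arrays. Pax6 and Sox2 had means of 0.0087 and -0.052. The part of eye tissue in the ratio of Lhx2 was not tested.

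Emx1, Emx2 and Neurog2 came next in the order of means, all under the 1.1-fold line. They had 0.083, 0.082 and 0.087, which are 1.06-fold each and differ from one another by far less than any of their SDs. Emx2 and Neurog2 kept values above 0 on all 4 arrays, as Lhx2 did, which 12.8% of all genes also did, and none of the 9 kept values below 0, against 9.86% of all genes.

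The promoters of these 3 genes with values above 0 on every array are shown because no other factor of the set had 1 sign on all arrays. Each window, credited to RefSeq, runs from 250 bases before to 50 after an annotated start, 5′ to 3′, and Lhx2 has 2 annotated starts. Capitals mark matches to CANNTG, the E-box that bHLH factors such as Neurog2 bind, or to TAATTA, a core that homeodomain factors bind, searched on both strands, on which both motifs read alike when N is any base.
Lhx2 promoter, GRCm38.p6 chr2:38339031-38339330, plus strand: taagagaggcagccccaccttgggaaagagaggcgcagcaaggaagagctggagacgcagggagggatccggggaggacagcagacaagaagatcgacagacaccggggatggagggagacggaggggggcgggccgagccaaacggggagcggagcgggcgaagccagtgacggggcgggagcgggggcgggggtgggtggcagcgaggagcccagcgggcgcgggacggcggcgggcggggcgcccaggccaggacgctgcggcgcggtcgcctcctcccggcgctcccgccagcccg
Lhx2 promoter, GRCm38.p6 chr2:38351058-38351357, plus strand: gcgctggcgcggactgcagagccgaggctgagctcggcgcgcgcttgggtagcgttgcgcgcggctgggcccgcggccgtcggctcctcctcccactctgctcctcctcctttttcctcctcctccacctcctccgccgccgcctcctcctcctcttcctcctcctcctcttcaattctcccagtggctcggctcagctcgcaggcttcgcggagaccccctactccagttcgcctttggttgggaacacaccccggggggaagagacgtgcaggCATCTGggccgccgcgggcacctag
Emx2 promoter, GRCm38.p6 chr19:59458440-59458739, plus strand: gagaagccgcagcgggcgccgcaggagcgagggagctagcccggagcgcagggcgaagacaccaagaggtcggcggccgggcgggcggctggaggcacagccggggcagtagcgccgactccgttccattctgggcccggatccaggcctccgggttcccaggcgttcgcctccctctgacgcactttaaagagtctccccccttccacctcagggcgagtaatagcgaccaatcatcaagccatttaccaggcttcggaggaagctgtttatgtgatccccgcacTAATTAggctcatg
Neurog2 promoter, GRCm38.p6 chr3:127632886-127633185, plus strand: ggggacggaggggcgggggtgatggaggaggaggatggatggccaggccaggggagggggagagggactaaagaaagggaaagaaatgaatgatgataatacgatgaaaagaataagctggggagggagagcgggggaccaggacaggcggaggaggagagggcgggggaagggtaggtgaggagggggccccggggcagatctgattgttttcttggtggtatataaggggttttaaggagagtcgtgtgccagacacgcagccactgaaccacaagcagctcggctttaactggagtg
Of the 9 factors 8 had a window in the table, 10 windows in all. An E-box was present in 5 of these 10 windows and in 72.3% of all 32851 windows, and TAATTA in 2 of the 10 and in 5.3% of all. Among the windows shown, the second Lhx2 window held 1 E-box, the Emx2 window 1 TAATTA, and the first Lhx2 window and the Neurog2 window neither. The Lhx2 windows had a GC content of 74.7% and 69.3%, the Emx2 window 64.3% and the Neurog2 window 58.0%, against a median of 52.7% over all windows. These matches are descriptions of letters and not sites of binding.

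Emx2, a homeodomain factor that patterns the cortex along its axes and favours caudal and medial areas, had 2 spots. Spot 16165 gave 0.078 and 0.110 with 152F7 in Cy5 and 0.042 and 0.064 with wild type in Cy5, a mean of 0.074 ± 0.029. Spot 7639 gave 0.192 and 0.234 against -0.017 and -0.047 in the same order, a mean of 0.091 ± 0.14. The spots thus had like means, but only the first was above 0 on all arrays, and the second split by dye orientation. The gene mean was 0.082 ± 0.084.

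Emx1, the paralogue of Emx2 and a marker of the pallium, had 0.283 and 0.086 with 152F7 in Cy5 and 0.027 and -0.066 with wild type in Cy5. The first array lay far above the other 3. Its mean of 0.083 ± 0.15 rests on spot 1492, which also fell among the noisiest 25% with an SD within orientations of 0.109.

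Pax6, a paired-domain and homeodomain factor that drives neurogenesis from radial glia, had 0.0295 and 0.094 with 152F7 in Cy5 and -0.0165 and -0.072 with wild type in Cy5, for a mean of 0.0087 ± 0.070. The orientations lay on opposite sides of 0, which was so for 30.8% of all genes. Its 2 measured spots differed in sign, with -0.023 ± 0.042 for spot 17279 and 0.040 ± 0.11 for spot 42415, and both means were smaller than their SDs.

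Sox2, an HMG-box factor that keeps neural progenitors undifferentiated, had -0.147 and -0.087 with 152F7 in Cy5 and -0.060 and 0.088 with wild type in Cy5. Its mean of -0.052 ± 0.10 was the lowest of the 9, with 3 of 4 arrays below 0, and 82.0% of all genes had a higher mean.

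The proneural factors Neurog1 and Neurog2, close bHLH relatives, gave different values. Neurog2, which directs cortical progenitors toward glutamatergic neurons, had 0.063 and 0.022 with 152F7 in Cy5 and 0.111 and 0.150 with wild type in Cy5. Its mean was 0.087 ± 0.056, one of only 2 in the set, with that of Lhx2, that exceeded its SD. Neurog1, which acts beside Neurog2 in the early pallium, had -0.010 and -0.061 with 152F7 in Cy5 and 0.033 and -0.011 with wild type in Cy5. Its mean was -0.012 ± 0.038, with the smallest SD of the 9 genes.

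The factors of intermediate progenitors lay close to 0. Insm1, a zinc-finger factor that promotes the formation of these cells, had 0.033 and -0.007 with 152F7 in Cy5 and -0.022 and 0.095 with wild type in Cy5, a mean of 0.025 ± 0.052. Eomes, the T-box factor also called Tbr2 that defines them, had -0.055 and -0.165 with 152F7 in Cy5 and 0.018 and 0.048 with wild type in Cy5. Its mean was -0.039 ± 0.095, and, as for Pax6, the orientations lay on opposite sides of 0, though in the other direction.

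**Figure D2:**
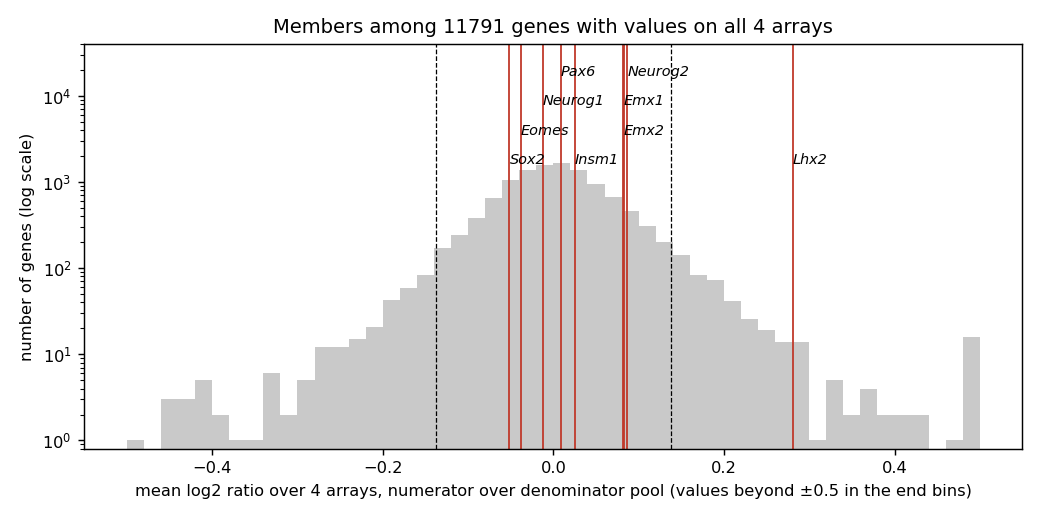
Histogram of the mean log2 ratio over 4 arrays (x axis) for 11791 genes, with the number of genes on a log scale (y axis), red lines at the 9 factors and dashed lines at 1.1-fold. Sox2, Eomes, Neurog1, Pax6 and Insm1 stand in the bulk of the genes, Emx1, Emx2 and Neurog2 on its upper flank and Lhx2 in the upper tail.

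The dye orientation moved these genes about as much as genes at large. The difference between orientations, 152F7 in Cy5 less wild type in Cy5, had a median size of 0.109 over the 9 factors and of 0.0955 over all genes. It was largest for Emx1 at 0.20, followed by Emx2 and Eomes at 0.14 and -0.14, Sox2 at -0.13, Lhx2 at -0.11 and Pax6 at 0.11. Neurog2 at -0.088, Neurog1 at -0.047 and Insm1 at -0.024 moved least. Dye effects of this kind cancel in the mean of both orientations, and the difference was larger than the mean itself for 7 of the 9 factors, all but Lhx2 and Insm1. If each deposited value were Cy5 over Cy3, this difference divided by 2 would be the log2 ratio of 152F7 over wild type. In that reading 0 of the 9 factors pass the 1.1-fold rule, Emx1 has the highest value at 0.10, and Lhx2 has -0.055. Lhx2, with 1 sign on every array, could not pass there. A pool difference in Xist would in that reading change sign between orientations, and Xist lay below 0 on all 4 arrays.

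**Figure D3:**
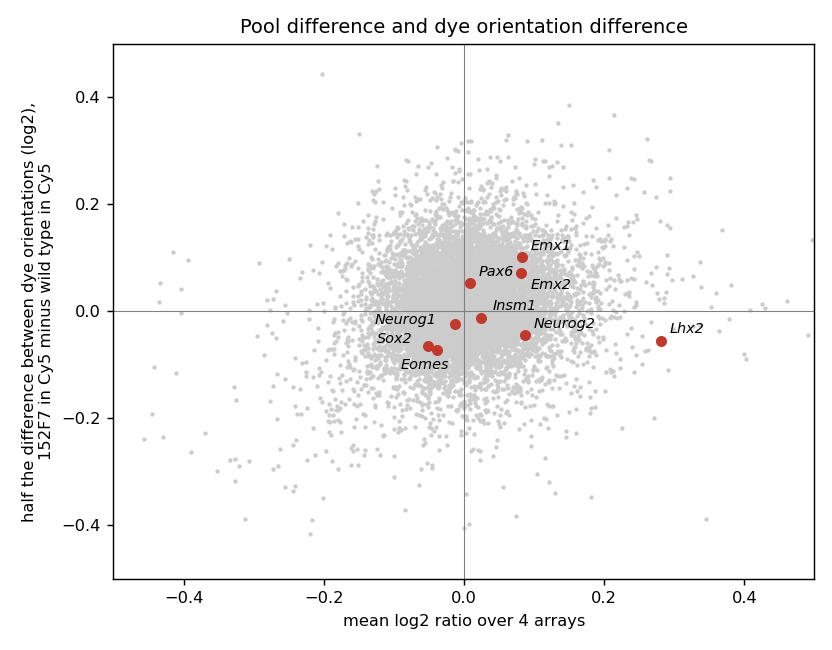
Mean log2 ratio over 4 arrays (x axis) against the orientation difference divided by 2 (y axis, log2, 152F7 in Cy5 minus wild type in Cy5) for all genes in grey and the 9 factors in red, with values beyond 0.5 in size not drawn. Lhx2 stands to the right at 0.28 on the x axis and -0.055 on the y axis, and the other 8 lie within the cloud.

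Other genes of cortical progenitors were read from lists. The counts stand beside 3.42% higher and 1.45% lower over all genes. Of 19 genes of radial glia and neuroepithelium, none of them among the 9 factors, 17 were measured on all 4 arrays, 2 were higher and 0 lower, and the median was 0.032. The means ran from -0.13 to 0.17, and the highest, of Slc1a3, was not called. Those called higher were Nr2e1, an orphan nuclear receptor also called Tlx that keeps progenitors dividing, at 0.16 ± 0.047, and Id4, an inhibitor of bHLH factors, at 0.14 ± 0.012. The value of Id4 lay on the 1.1-fold line and fell below it without either array of 152F7 in Cy5 (0.135 and 0.134) and with the spot nearest to 0 (0.0925). It also fell below with wild type in Cy5 alone (0.1272) and with the arrays centred on named spots (0.1356). The same held with the arrays quantile normalized to 1 common distribution (0.1353). The median of these genes is close to the 0.025 of the 9 factors.

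Downstream of the proneural factors, 17 of 18 genes of intermediate progenitors and Neurog2 targets were measured. Of these, 2 were higher and 0 lower, against 3.42% and 1.45% of all genes, with a median of 0.027. Nhlh1, a bHLH factor of newborn neurons, had 0.23 ± 0.15, and Pcdh8, a protocadherin, had 0.14 ± 0.14 with its values split by orientation at 0.019 and 0.018 with 152F7 in Cy5 and 0.257 and 0.262 with wild type in Cy5. Pcdh8 was not called without replicate 1 or 2 of wild type in Cy5 (0.0997 and 0.098). It was also not called with 152F7 in Cy5 alone (0.019) or with the arrays centred on named spots (0.137). Of 12 genes described as Pax6 targets in cortex, 2 of which, Neurog2 and Eomes, are among the 9 factors, 11 were measured, with 2 higher, 0 lower and a median of 0.0027. Sfrp2, a secreted modulator of Wnt signals, had 0.22 ± 0.12 and Nfia, a nuclear factor of radial glia, 0.16 ± 0.054. Nfia was not called with the median over its spots (0.0963), with the spot nearest to 0 (0.0907) or without replicate 2 of 152F7 in Cy5 (0.134). It was also not called with wild type in Cy5 alone (0.125).

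Factors that pattern the dorsal telencephalon and its areas gave no calls, with 0 higher and 0 lower of 14 measured among 18, and a median of -0.0044. The ventral telencephalon list, whose factors oppose the dorsal ones in fate choice, gave 0 higher and 0 lower of 16 measured among 18, with a median of 0.019. Its means ran from -0.12 to 0.19. At the border between these territories, the antihem list had 7 measured genes of 9. In it 1 was higher and 1 lower, against 3.42% and 1.45% of all genes. The higher one was again Sfrp2, and the lower one was Dbx1, a homeodomain factor of that border, at -0.22 ± 0.14. The difference between these lists was not tested.

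Neurons are what the progenitors make. Of 11 measured cortical neuron genes of 12, 4 were higher and 0 lower, against 3.42% and 1.45% of all genes, with a median of 0.10, led by Nefm at 0.33 ± 0.085 and Nefl at 0.29 ± 0.11, which encode neurofilament chains, and by Nfib, a nuclear factor of deep-layer neurons and radial glia, at 0.16 ± 0.054. Nfib was not called without replicate 2 of wild type in Cy5 (0.134), with the spot nearest to 0 (0.0628) or with 152F7 in Cy5 alone (0.1258). Of 11 measured cell cycle genes of 12, 1 was higher, the G1 cyclin Ccnd2 at 0.26 ± 0.10, and 2 were lower, the topoisomerase Top2a at -0.20 ± 0.14 and the mitotic kinase Cdk1 at -0.14 ± 0.059, with a list median of -0.048. Cdk1 was not called without replicate 1 or 2 of 152F7 in Cy5 (-0.129 and -0.122) or with spots that had values on at least 3 arrays (-0.068). Spots with a value in each orientation gave the same value and no call. Nor was Cdk1 called with wild type in Cy5 alone (-0.0935) or with the arrays quantile normalized (-0.1355). Top2a was not called with wild type in Cy5 alone (-0.091). With the spot nearest to 0 its mean of -0.17 passed the line but did not have 1 sign on all 4 arrays.

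Genes of mesenchyme, red cells, endothelium, choroid plexus and hem, and Cajal-Retzius cells were read in the same way. Over all genes, 3.42% were higher and 1.45% lower. Of 11 genes of mesenchyme and meninges 5 were higher, led by Dcn at 0.43 ± 0.056, Col1a1 at 0.34 ± 0.054 and Postn at 0.29 ± 0.023. The 1 lower gene was Twist1 at -0.28 ± 0.20. Foxd1 and Prrx1, at -0.049 and -0.063, lay below 0 on all 4 arrays but were not called. The 11 means ran from -0.28 to 0.43 with a median of 0.12. Of 6 measured red cell genes 4 were higher, led by the globins Hba-x at 0.29 ± 0.26 and Hba-a1 at 0.23 ± 0.098 and by Alas2, the first enzyme of haem synthesis in red cells, at 0.20 ± 0.043. The red cell list had a median of 0.17. Of 7 measured endothelial genes 2 were higher, Mfsd2a at 0.26 ± 0.090 and Kdr, a VEGF receptor, at 0.24 ± 0.044. The endothelial list had a median of 0.15, and its highest mean was that of Slc2a1 at 0.29, which was not called. Of 10 genes of choroid plexus and hem 3 were higher, Kcne2 at 0.34 ± 0.058, Ttr at 0.34 ± 0.12 and Clic6 at 0.15 ± 0.074. This list had a median of 0.043, and its lowest mean was that of Bmp4 at -0.11, which was not called. Rspo2 and Rspo3, at -0.051 and -0.078, lay below 0 on all 4 arrays but were not called. Clic6 was not called without replicate 1 or 2 of 152F7 in Cy5 (0.129 and 0.136), with the spot nearest to 0 (0.0822) or with wild type in Cy5 alone (0.0938). No gene was lower in the red cell, endothelial and choroid plexus lists. Cajal-Retzius genes, of early neurons at the cortical surface, had 0 calls among 8 and a median of -0.015. Their means ran from -0.056 to 0.23. The highest, of Reln, came from 0.504 and 0.422 with 152F7 in Cy5 and 0.043 and -0.039 with wild type in Cy5. It passed the line but did not have 1 sign on all 4 arrays. The part of these tissues in the values of the 9 factors was not tested.

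The labelled tissue could be checked only by which markers kept a value on the arrays. Of 11 genes of midbrain and hindbrain, 10 had a named spot, 8 had a value on at least 1 array and 2 had values on all 4. All 9 of the dorsal factors and 16 of 17 ventral telencephalon genes with a named spot had values on all 4. So did 11 of 11 genes of mesenchyme and meninges, 6 of 6 red cell genes and 14 of 19 eye genes with a named spot. Kept values thus do not show that the tissue was telencephalon alone. What removed the missing values before deposit is unknown here.

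**Figure D4:**
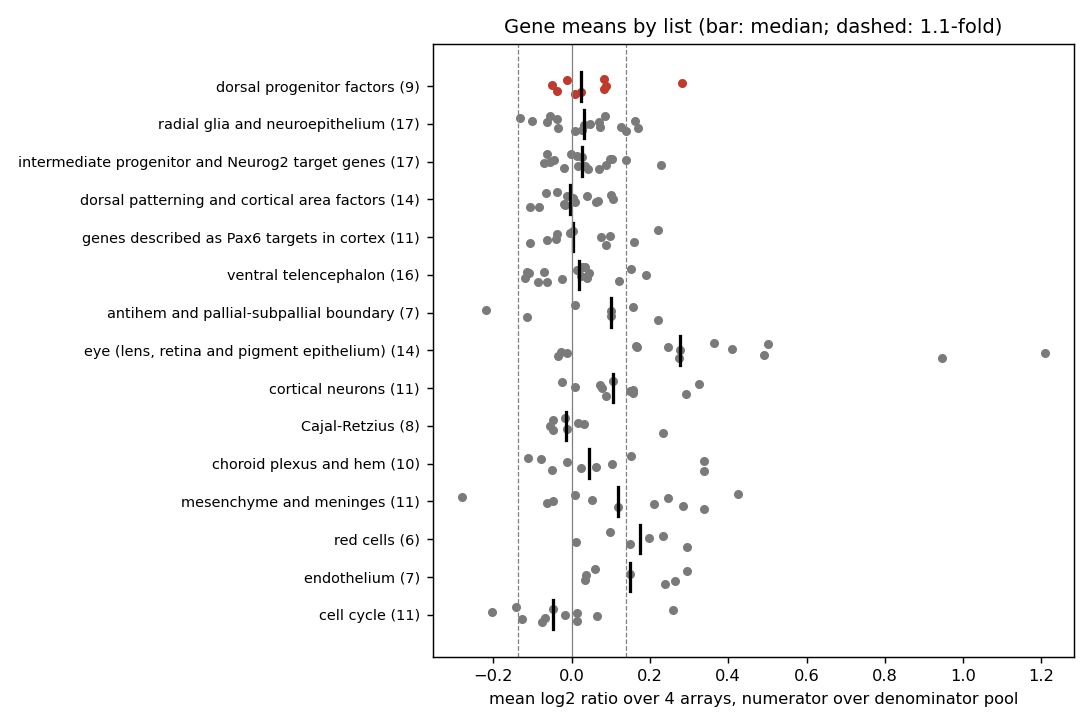
Mean log2 ratio over 4 arrays (x axis) of each measured gene, by list (rows, with the number of measured genes in brackets), with the 9 factors in red, a black bar at each list's median and dashed lines at 1.1-fold. The dorsal progenitor, radial glia and intermediate progenitor rows centre at 0.025 to 0.032, and the eye row, with a median of 0.28, lies farthest to the right.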

How the data were processed

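RNA of 1 pool per genotype was labelled from 1 ug with an Agilent linear amplification kit and hybridised on 4 Agilent whole mouse genome arrays, per the labels' protocols. The authors deposited 1 log ratio of the 2 channels per spot and array, read here as log2. The sources used here do not state the background correction, normalization, log base, direction or filter on spots, and natural logs were run as an alternative. The largest value, 5.76 in size, exceeds the 4.82 that a log10 ratio of raw 16-bit intensities can reach. Array medians lie between -0.007 and 0.007, and 53.7% to 65.3% of spots have a value per array. Without intensities, no signal over background can be given, and precision is limited by the number of arrays.

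Spot numbers were matched to the platform annotation: 32042 have 1 symbol, 47 several and 12201 none. The Entrez identifiers of all 9 members gave the same symbols in the GRCm38.p6 gene table. Spots with values on all 4 arrays were averaged per gene and then over arrays. Arrays of one dye orientation correlated at 0.862 and 0.905 over all spots and at 0.648 and 0.726 over named ones. Arrays of opposite orientation correlated at -0.596 to -0.661 over all spots and at 0.037 to 0.116 over named ones (Pearson, across spots).

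Members and lists were chosen with earlier results of these data known. The genes named are all members, up to 3 genes per list and direction past the 1.1-fold rule, the 3 genes nearest to the member with the largest mean, and markers of sex. Rax, Pitx3, Mitf, Otx2, Bmp4, Foxd1, Prrx1, Rspo2, Rspo3, Reln, Slc1a3 and Slc2a1 were named after their values were seen. The call rule was tested on simulated data. Alternatives covered the direction, log base, orientation, arrays, spots, missing values, scaling and threshold. Python 3.11.15, pandas 2.3.3, numpy 2.4.6 and matplotlib 3.10.9 were used.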

Additional observations from a re-analysis of the deposited data

Results flagged for a closer look

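Pax6 and Eomes drew attention because both arrays of each dye orientation lay on the same side of 0 and the 2 orientations on opposite sides. The difference between orientations, 152F7 in Cy5 less wild type in Cy5, was 0.106 for Pax6 and -0.143 for Eomes. Neither difference was tested. Of all 11791 genes, 30.8% met this rule. By the means of the orientations alone, 5 of the 9 factors lay on opposite sides, with Emx1, Sox2 and Neurog1 as the others, and so did 55.1% of all genes.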

How the results depend on the processing

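Lhx2 passed the 1.1-fold rule in each dye orientation alone, without each array in turn, and under every other choice of spots, centring and scaling, except that it had no value without the noisiest 25% of spots and did not pass with the arrays of wild type in Cy5 turned. Most of these passes were fixed in advance. All 4 of its values lay above the line, so every subset of arrays had to pass. It has 1 spot, so the other choices of spots left its mean at 0.281. Centring the arrays gave 0.279 and quantile normalization gave 0.266. The turned reading, which takes each value as Cy5 over Cy3, left 0 of the 30 named genes past the rule past it. That outcome was fixed in advance, because a gene with 1 sign on every array has mixed signs once 1 orientation is turned. The turned reading changed the sign of the mean of 11, to -0.055 for Lhx2, -0.12 for Pcdh8, 0.12 for Dbx1, -0.0018 for Cryba1, -0.032 for Nfib, -0.026 for Col1a1, -0.043 for Hba-a1, -0.013 for Alas2, -0.073 for Mfsd2a, -0.031 for Kdr and -0.075 for Ccnd2. In that reading the median of the 9 factors was -0.023 and 0 were higher. No other alternative changed the sign of a named gene past the rule, and 20 of the 30 passed it in every other alternative that gave them a value, while 10 did not: Id4, Nhlh1, Pcdh8, Nfia, Dbx1, Nfib, Clic6, Hba-x, Top2a and Cdk1. Of these, Nhlh1 (0.11) and Hba-x (0.068) fell short only with wild type in Cy5 alone and Dbx1 (-0.096) only with 152F7 in Cy5 alone. The median of the 9 factors was 0.043 with 152F7 in Cy5 only, 0.014 with wild type in Cy5 only, -0.012 over the 7 factors left without the noisiest 25% of spots, and 0.016 to 0.040 without 1 array in turn, lowest without replicate 1 of 152F7 in Cy5 and highest without replicate 1 of wild type in Cy5. The number of factors called higher was 3 with 152F7 in Cy5 only (Lhx2, Emx1 and Emx2), 3 with the line lowered to 0.07 on the log2 scale (Lhx2, Emx2 and Neurog2, with 8.94% of all genes higher), 0 at 1.5-fold and 0 without the noisiest 25% of spots. It stayed at 1 without 1 array in turn, and 0 factors were lower in any setting. Read as natural logs, the mean of Lhx2 was 0.41 on the log2 scale. Over all genes the rule called 403 higher and 171 lower, and 763 and 446 as natural logs, 1445 and 801 with 152F7 in Cy5 only, 742 and 951 with wild type in Cy5 only. No paired analysis was possible because the result comes from no test; with the replicate number as a block the median was 0.025 and 1 factor was higher. Spots with a value on fewer arrays added none to the 9 factors.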
